A study of Homo sapiens with 6 samples.

Results

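The genes described here are 45 that carry out or control the start of DNA replication, many of them textbook targets of the E2F transcription factors. They were chosen by symbol, from a fixed list of the helicase, origin, polymerase, clamp, nucleotide and E2F genes, out of 30270 genes in the count table. All 45 were among the 23952 genes tested. The data are estimated gene counts of rRNA-depleted total RNA from HEK 293T cells, an immortalized human embryonic kidney line that carries the SV40 large T antigen. Of the 6 libraries, 3 were labelled wildtype (WT) and 3 TENT3A/B double knockout. TENT3A and TENT3B are other names of TUT4 and TUT7, the enzymes that add uridines to RNA 3′ ends, and the knockout is called ΔTUT4/7. Both groups were grown in DMEM with 10% fetal bovine serum, and the labels list no treatment for either. Each group was 1 cell line, so what the deletion did and how the lines differ otherwise cannot be told apart. The sources used here do not say whether the knockout line came from 1 clone.

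In G1 phase the origin recognition complex (ORC), CDC6 and CDT1 load the ring-shaped MCM helicase onto DNA, a step called licensing. In S phase CDC45 and the GINS complex join MCM to form the active helicase, and polymerases, the PCNA clamp and its loader RFC copy the strands. Many of these genes are switched on by E2F factors, which the retinoblastoma protein RB1 and its relatives hold back until cyclin E and its kinase act. In HEK 293T cells large T antigen binds the RB proteins, so this brake is already weakened in both groups.

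The labels were checked on the targeted genes. The TUT4 level in CPM (counts scaled to library size with TMM factors) was 212, 216 and 206 in WT replicates 1, 2 and 3 and 882, 920 and 917 in the libraries labelled ΔTUT4/7, so it was 4.29 times higher where a knockout was expected (log2 fold change 2.10, adjusted p = 7.89e-19, edgeR quasi-likelihood test). TUT7 was lower there, at 27.2, 25.2 and 26.5 against 60.4, 62.6 and 64.8 CPM (log2 fold change -1.25, adjusted p = 2.20e-13). A gene count covers the whole gene and does not show whether an edited part is present. TUT4 goes against its label, so every direction below rests on that label. Library totals ran from 18757228 to 33148937 counts, and no pair of libraries agreed within sampling noise. Of 6 HEK 293 line genes, NEFM, a neurofilament gene, was at 1 count over the 3 libraries labelled ΔTUT4/7 and 74948 in WT, while VIM, the vimentin gene, was at 1250 and 496 CPM. The summed level of these 6 genes was 1785 to 1988 CPM in WT and 1396 to 1410 CPM in the libraries labelled ΔTUT4/7. Markers of the other cell types given here were low in both groups. The 5 fibroblast markers summed to 21.8 to 26.2 CPM in WT and 9.18 to 11.2 CPM in the other group. The 4 immune markers summed to at most 3.16 CPM and the 3 hepatocyte markers to at most 0.228 CPM. DCN and LUM of the fibroblast list, PTPRC and CD3E of the immune list and APOA1 and TTR of the hepatocyte list were absent from the count table. They were taken as 0 in these sums. HBA1, a hemoglobin gene, was higher in the libraries labelled ΔTUT4/7, with 90 counts over the 3 libraries (1.31 CPM) against 9 in WT (0.108 CPM).

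Sequence near the start sites shows what many of these genes share. An E2F site is commonly written as TTTSSCGC, and its 4 spelled forms TTTCCCGC, TTTCGCGC, TTTGCCGC and TTTGGCGC were searched on both strands of RefSeq windows (GRCh38.p14) that run from 250 bases before to 50 bases after the start. Matches may overlap. A form was found for 22 of the 41 members with a window (53.7%), for 543 of 7145 tested genes counted at least as highly as the lowest member (7.60%), and for 1090 of all 27305 genes with a window (3.99%). Members were picked partly as E2F targets, so this difference describes the choice of genes. The windows of CCNE2, MCM4, GINS4 and MCM5 were not used here. The stretches below are shown because they come from E2F genes and replication genes that rose, fell or did not pass the test with the same short motif upstream. Capitals mark the matches, each stretch reads 5′ to 3′ along the gene, and a match is a description, not a proven site. The regions are chr6:20401786-20401873 (plus strand) for E2F3, chr20:33686386-33686458 (minus) for E2F1, chr1:23531234-23531315 (minus) for E2F2, chr2:135876482-135876635 (minus) for MCM6, chr16:88803714-88803788 (plus) for CDT1 and chr20:5126634-5126721 (minus) for PCNA.
E2F3: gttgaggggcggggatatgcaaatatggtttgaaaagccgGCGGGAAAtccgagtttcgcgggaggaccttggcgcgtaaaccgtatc
E2F1: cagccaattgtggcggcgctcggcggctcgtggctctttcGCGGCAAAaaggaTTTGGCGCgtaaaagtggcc
E2F2: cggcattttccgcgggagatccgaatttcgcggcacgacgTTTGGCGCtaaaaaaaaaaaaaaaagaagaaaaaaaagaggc
MCM6: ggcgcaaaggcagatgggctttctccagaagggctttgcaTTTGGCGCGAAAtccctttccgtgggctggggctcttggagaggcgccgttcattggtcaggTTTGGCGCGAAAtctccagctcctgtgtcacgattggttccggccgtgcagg
CDT1: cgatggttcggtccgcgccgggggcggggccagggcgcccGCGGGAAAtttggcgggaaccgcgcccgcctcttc
PCNA: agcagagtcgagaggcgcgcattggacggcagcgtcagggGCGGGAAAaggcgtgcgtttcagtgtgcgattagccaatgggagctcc

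MCM6 and E2F3 rose in the libraries labelled ΔTUT4/7, E2F1, E2F2 and CDT1 fell, and PCNA was not called, so the motif stood upstream of genes of each kind. The form was present for 11 of 24 members that rose (45.8%), 7 of 12 that fell (58.3%) and 4 of 5 that were not called (80.0%). These counts are small and were not tested against each other. Some windows lie inside the listed span of the gene. RB1, counted as without a form, had its only window at chr13:48476200-48476499, well inside the gene, so sequence around its first base (48303744) was not searched. The GINS3 window, which held a form, also lay inside its span.

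Of the 45 genes, 25 rose, 13 fell and 7 did not pass an adjusted p under 0.05 (edgeR, Benjamini-Hochberg over all tested genes). Calls were common in this comparison: 57.7% of all tested genes were called, 28.6% higher and 29.0% lower. Among the 9034 tested genes whose mean count reached that of the lowest member, 451, 77.6% were called, 48.6% higher and 29.0% lower. The members, at 84.4% called, 55.6% higher and 28.9% lower, lay near that background, so the count of calls is not a result about these genes. The libraries of both groups did not overlap for 41 of the 45, a pattern that 62.7% of all tested genes and 79.7% of the highly counted ones showed. Log2 fold changes of the members ran from -0.71 (CDT1) to 1.12 (RFC5) with a median of 0.22, where all tested genes had a median of -0.02 and the highly counted ones 0.13. The changes were small in most cases, with 31 of 45 under 0.5 in size on the log2 scale. The same held for 5774 of the 9034 highly counted genes and for 12551 of all 23952 tested genes. RFC5 was the only member called with a change of 2-fold or more. That threshold was passed by 18.3% of all tested genes and 8.58% of the highly counted ones. Scaling by library size alone lowered all log2 fold changes by about 0.11 and gave 21 members higher and 15 lower. In bulk RNA a change in the share of cells that are in S phase and a change of RNA per cell cannot be told apart.

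**Figure D1:**
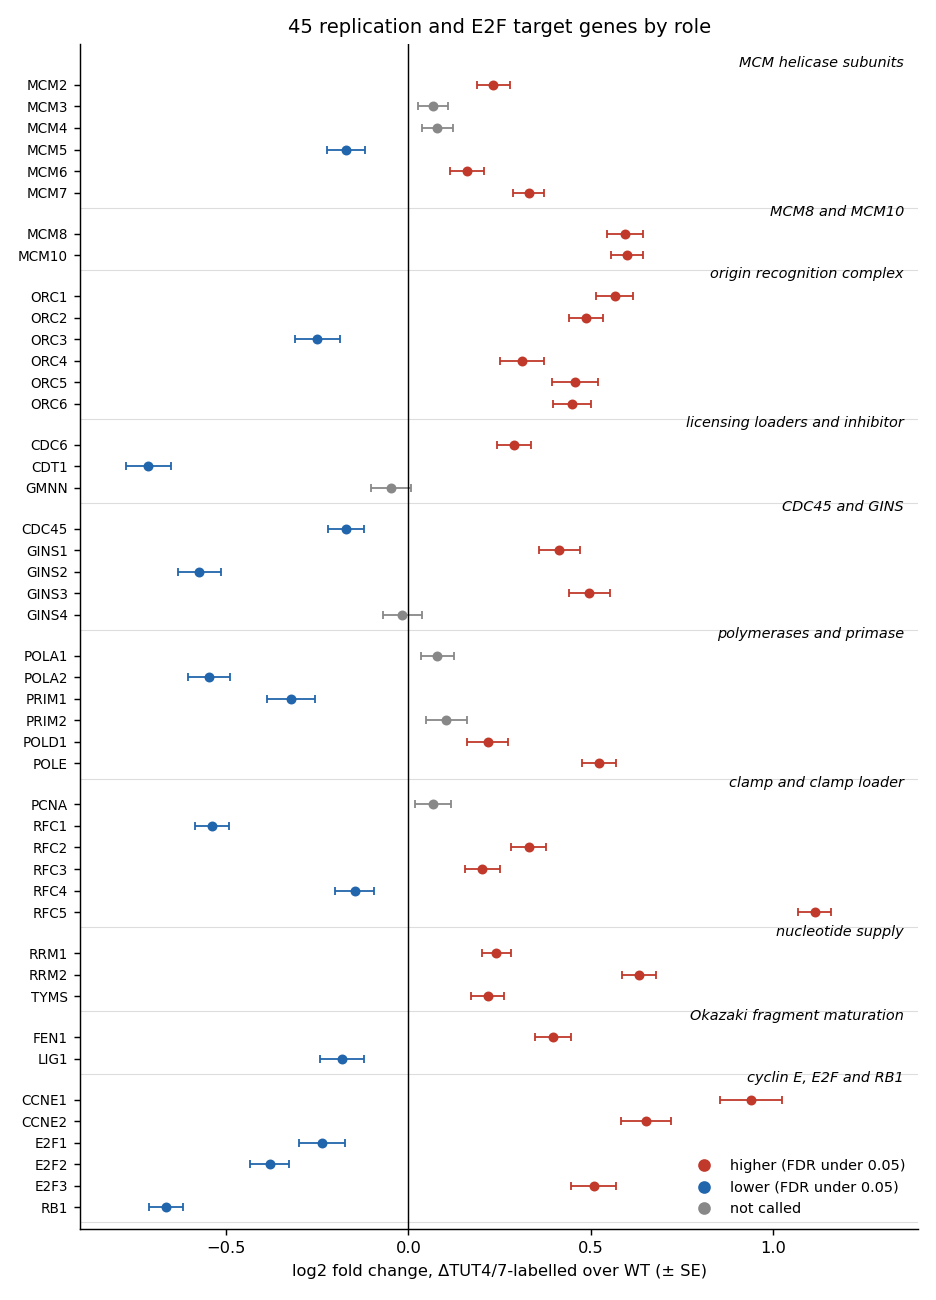
Log2 fold change of each of the 45 genes, libraries labelled ΔTUT4/7 over WT, with its standard error (3 libraries per group), grouped by role; red and blue points passed an adjusted p under 0.05, and grey points did not. Most points lie within 0.5 of zero, RFC5 is farthest right at 1.12 and CDT1 farthest left at -0.71.

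The 6 subunits of the MCM helicase did not move as a unit. MCM2, MCM6 and MCM7 rose, MCM5 fell, and MCM3 and MCM4 were not called. MCM7 (hg38 chr7:100092728-100101940), which also hosts a microRNA cluster in an intron, was at 345, 329 and 348 CPM in WT and 436, 424 and 425 CPM in the libraries labelled ΔTUT4/7. The groups were well apart, with a log2 fold change of 0.33 ± 0.04 (SE, 3 libraries per group; adjusted p = 7.97e-07). MCM2, whose tail also binds histones, went from 273, 254 and 257 CPM to 316, 298 and 307 CPM (log2 fold change 0.23 ± 0.04, adjusted p = 0.000112). MCM6, at 227, 247 and 223 CPM against 258, 265 and 257 CPM, rose by 0.16 ± 0.05 (adjusted p = 0.00475). That call was lost with library size alone (log2 fold change 0.05, adjusted p = 0.431) and upper-quartile scaling (0.06, adjusted p = 0.284). It was also lost with limma on log2(CPM + 1), itself scaled by library size alone (0.05, adjusted p = 0.426), and a mean count filter of 50 (0.10, adjusted p = 0.0732). MCM5 (chr22:35400134-35425431) was at 167, 145 and 147 CPM in WT and 139, 133 and 135 CPM in the other group. WT replicate 1 stood above the other 2, and without it the fall of 0.17 ± 0.05 (adjusted p = 0.00776) became one of 0.11 that did not pass (adjusted p = 0.0720). For MCM3 the log2 fold change was 0.07, with a 95% interval of -0.02 to 0.15, and for MCM4 it was 0.08 (-0.01 to 0.17), so each interval excludes a change as large as that of MCM7.

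Per kilobase of transcript, which allows levels of different genes to be set side by side, MCM7 was the most abundant of the 6 in both groups (138 and 173 CPM per kb) and MCM5 the least (44.2 and 39.2 CPM per kb). This scale rests on the canonical transcript length of each gene, and the transcripts in use were not measured. The order MCM7, MCM4, MCM3, MCM2, MCM6, MCM5 was the same in both groups. In WT the neighbours MCM3 (91.9 ± 1.21 CPM per kb, SD, n = 3) and MCM4 (102 CPM per kb) lay closer to each other than to MCM7. The spread between the most and the least abundant subunit widened from 3.12 to 4.43 times. Within libraries the ratio of MCM7 to MCM5 per kilobase was 2.90, 3.18 and 3.32 in WT and 4.41, 4.47 and 4.42 in the libraries labelled ΔTUT4/7, which did not overlap. This pair and the ratios below were chosen after the values were seen, and no test was made of them.

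MCM8 and MCM10 are not part of the ring. MCM8 works with MCM9 in recombination repair, and MCM10 helps to activate the assembled helicase. MCM8 was at 91.4, 92.4 and 98.6 CPM in WT and 135, 144 and 147 CPM in the libraries labelled ΔTUT4/7 (log2 fold change 0.59 ± 0.05, adjusted p = 1.19e-09). MCM10 went from 156, 145 and 154 CPM to 227, 230 and 231 CPM (0.60 ± 0.04, adjusted p = 1.83e-10). Both log2 fold changes were above those of the ring subunits. The 40 neighbours of MCM10 within 5 Mb had a median of 0.40, and with it subtracted MCM10 stood at 0.19, below MCM2 (0.35), MCM3 (0.39), MCM4 (0.31) and MCM7 (0.30) treated the same way. A same-strand protein-coding gene, AL035461.3, spans 48029 bases of MCM8, and its own log2 fold change was 0.31. How the estimated counts divided reads between them was not tested.

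Of the origin recognition complex, 5 of 6 subunits rose and ORC3 fell. ORC1, the ATPase that arrives at origins late in mitosis and is degraded in S phase, was at 61.8, 64.7 and 66.1 CPM in WT and 97.1, 94.9 and 93.2 CPM in the libraries labelled ΔTUT4/7 (log2 fold change 0.57 ± 0.05, adjusted p = 3.35e-09). ORC1 (chr1:52372829-52404423, minus strand) begins 3858 bases past the end of TUT4 (chr1:52408282-52553487), which lies on the same strand and rose 4.29 times. Whether transcription past the end of TUT4 adds to the ORC1 counts was not tested. The 54 other expressed genes within 5 Mb of ORC1 had a median log2 fold change of 0.18. ORC2 rose by 0.49 ± 0.05 (82.2, 86.1 and 82.6 CPM to 118, 117 and 116 CPM, adjusted p = 1.06e-08), and ORC5 and ORC6 by 0.46 and 0.45. ORC4 rose least, by 0.31 ± 0.06 (adjusted p = 0.000166).

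ORC3 (chr6:87590067-87667453) was the exception, at 61.6, 60.5 and 58.0 CPM in WT and 47.2, 55.3 and 49.2 CPM in the libraries labelled ΔTUT4/7, a fall of 0.25 ± 0.06 on the log2 scale (adjusted p = 0.00158). Replicate 2 of the lower group came closest to WT, but the groups did not overlap. Per kilobase, ORC6 was the most abundant subunit and ORC4 the least in both groups. ORC3 was next to ORC6 in WT, at 24.0 CPM per kb, and below ORC1, ORC2 and ORC5 in the libraries labelled ΔTUT4/7, at 20.3 CPM per kb. The ratio of ORC1 to ORC3 within libraries was 0.856 ± 0.055 in WT and 1.51 ± 0.137 in the other group (mean ± SD, n = 3 each).

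The loading factors moved apart. CDC6 acts with ORC to load MCM, CDT1 carries MCM to the origin, and GMNN encodes geminin, the protein that inhibits CDT1 after licensing. CDT1 (chr16:88803789-88809258) was at 88.3, 76.6 and 84.6 CPM in WT and 53.7, 47.6 and 50.2 CPM in the libraries labelled ΔTUT4/7. All 3 of these lay under every WT library, and the level was 0.607 of WT (log2 fold change -0.71 ± 0.06, adjusted p = 2.31e-09), the largest fall of any member. CDC6 rose from 132, 137 and 135 CPM to 164, 172 and 157 CPM (log2 fold change 0.29 ± 0.05, adjusted p = 1.46e-05). GMNN was at 62.0, 64.6 and 68.5 CPM in WT and 64.1, 63.6 and 61.3 CPM in the other group, so the groups overlapped (log2 fold change -0.05, 95% interval -0.16 to 0.07). GMNN passed the test as lower when library size alone set the scale (-0.16, adjusted p = 0.0154).

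Within libraries the ratio of CDC6 to CDT1 per kilobase was 0.874, 1.04 and 0.928 in WT and 1.78, 2.11 and 1.83 in the libraries labelled ΔTUT4/7. On that scale CDC6 and CDT1 were near parity in every WT library and CDC6 was ahead in every other. In CPM CDC6 was above CDT1 in every library of both groups, so the parity depends on the transcript lengths used. CDT1 per GMNN transcript, the loader over its inhibitor, was 0.608 ± 0.060 in WT and 0.380 ± 0.022 in the other group (mean ± SD, n = 3 each).

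CDC45 and the 4 GINS genes also split, with GINS1 and GINS3 higher, GINS2 and CDC45 lower and GINS4 not called. The GINS proteins form a complex of 1 copy each. GINS2 (chr16:85676198-85690073) was at 58.2, 58.4 and 53.5 CPM in WT and 39.2, 37.7 and 37.1 CPM in the libraries labelled ΔTUT4/7, 0.670 of WT (log2 fold change -0.57 ± 0.06, adjusted p = 3.66e-08). GINS3 (chr16:58295080-58406147), on the same chromosome, went the other way, from 38.0, 38.8 and 38.2 CPM to 54.5, 54.0 and 53.7 CPM (0.50 ± 0.06, adjusted p = 1.31e-07). By mean level per kilobase, GINS2 was the highest of the GINS genes in WT and the lowest in the libraries labelled ΔTUT4/7. Its first place in WT was narrow, at 21.6 ± 1.04 CPM per kb against 20.0 ± 1.16 for GINS1 and 19.8 ± 1.09 for GINS4 (SD, n = 3). In CPM GINS2 was below GINS1 and GINS4 in every WT library, so that place depends on the transcript lengths used. The ratio of GINS3 to GINS2 was 0.780, 0.794 and 0.851 in the WT libraries and 1.66, 1.71 and 1.73 in the others. GINS1 rose by 0.41 ± 0.06 (63.5, 64.3 and 70.5 CPM to 87.0, 93.1 and 84.7 CPM, adjusted p = 1.61e-06). CDC45, the most abundant of the 5 per kilobase in both groups, fell by 0.17 ± 0.05 (adjusted p = 0.00522). GINS4 overlapped between groups, with a log2 fold change of -0.02 (95% interval -0.13 to 0.10).

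**Figure D2:**
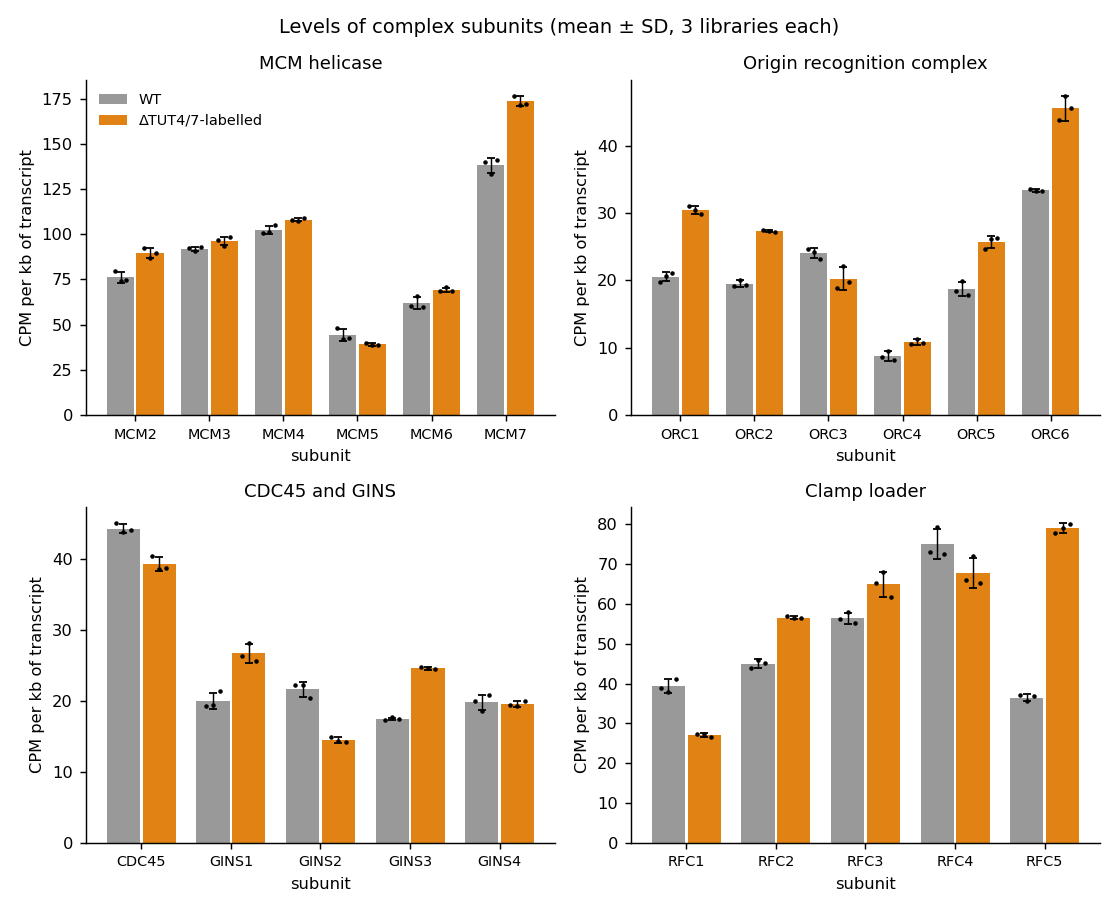
Levels of the subunits of 4 replication complexes in CPM per kilobase of transcript; bars are the mean of 3 WT (grey) or 3 ΔTUT4/7-labelled (orange) libraries, error bars the SD and points the libraries. By mean, GINS2 goes from the highest of the GINS genes, close to GINS1 and GINS4, to the lowest. RFC5 goes from the lowest clamp loader subunit (36.5) to the highest (79.0).

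Polymerase genes showed 2 that rose, 2 that fell and 2 that were not called. DNA polymerase α and primase, which lay down the primers, are encoded by POLA1, POLA2, PRIM1 and PRIM2. The accessory subunit POLA2 (chr11:65261920-65305589) was at 76.7, 83.3 and 74.1 CPM in WT and 55.8, 51.1 and 53.0 CPM in the libraries labelled ΔTUT4/7 (log2 fold change -0.55 ± 0.06, adjusted p = 4.79e-08). The small primase subunit PRIM1 fell by 0.32 ± 0.07 (81.3, 81.7 and 73.3 CPM to 61.1, 69.7 and 58.3 CPM, adjusted p = 0.000298). NACA, a protein-coding gene on the same strand, overlaps 333 bases of PRIM1, and how reads were divided there was not tested. The catalytic subunit POLA1 and the large primase subunit PRIM2 had log2 fold changes of 0.08 (95% interval -0.01 to 0.17) and 0.10 (-0.01 to 0.22). The genes of this 1 complex therefore did not share a direction, and the ratio of POLA1 to POLA2 per kilobase was 1.63 ± 0.048 in WT and 2.52 ± 0.115 in the other group. A predicted same-strand gene, AP000944.5, covers most of POLA2 and rose (log2 fold change 0.68), so the division of reads between the pair is uncertain.

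POLE, the catalytic subunit of the leading-strand polymerase, rose 1.44 times, from 255, 241 and 250 CPM to 366, 336 and 370 CPM (log2 fold change 0.52 ± 0.05, adjusted p = 3.00e-09). POLD1, the catalytic subunit of the lagging-strand polymerase, was at 74.0, 64.7 and 67.6 CPM in WT and 81.3, 76.7 and 81.5 CPM in the libraries labelled ΔTUT4/7. It rose by 0.22 ± 0.06 (adjusted p = 0.00221), a call lost when library size alone set the scale (0.10, adjusted p = 0.140). By mean level per kilobase POLE went from the third of the 6 polymerase genes, at 31.8 CPM per kb, to the first, at 45.7 ± 2.40 CPM per kb (SD, n = 3). PRIM1, at 44.3 ± 4.18 CPM per kb in the libraries labelled ΔTUT4/7, was within that spread. In CPM POLE was the highest of the 6 in every library of both groups, so the change of rank depends on the transcript lengths used.

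The clamp loader held the largest change of all. RFC opens the PCNA ring and places it on DNA. RFC1 is its large subunit, and RFC2 to RFC5 are small subunits present at 1 copy each. RFC5 (chr12:118013588-118033130) was at 78.0, 74.7 and 77.6 CPM in WT and 164, 167 and 169 CPM in the libraries labelled ΔTUT4/7. That was 2.17 times higher (log2 fold change 1.12 ± 0.05, adjusted p = 1.30e-14), and over the other fits the log2 value ran from 0.99 to 1.12. RFC1 (chr4:39287456-39366375) went down, from 190, 184 and 201 CPM to 133, 133 and 129 CPM (log2 fold change -0.54 ± 0.05, adjusted p = 1.83e-09). RFC2 and RFC3 rose by 0.33 ± 0.05 (adjusted p = 4.46e-06) and 0.20 ± 0.05 (adjusted p = 0.000966), and the RFC3 call was lost with library size alone (0.09, adjusted p = 0.134).

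RFC4 was at 99.7, 108 and 99.1 CPM in WT and 90.1, 98.5 and 89.2 CPM in the libraries labelled ΔTUT4/7. Its highest library in the lower group was close to the lowest WT library, and its fall of 0.15 ± 0.05 (adjusted p = 0.0235) did not pass without WT replicate 2 (-0.10, adjusted p = 0.114), without ΔTUT4/7 replicate 1 (-0.13, adjusted p = 0.0981) or without ΔTUT4/7 replicate 3 (-0.12, adjusted p = 0.112). In WT the order per kilobase was RFC4, RFC3, RFC2, RFC1, RFC5, and in the libraries labelled ΔTUT4/7 RFC5 moved from last to first while RFC1 became the last. RFC5 per RFC1 transcript was 0.952, 0.939 and 0.895 in WT and 2.84, 2.90 and 3.02 in the others. PCNA itself, the member with the highest level per kilobase (227 and 238 CPM per kb), was at 283, 302 and 282 CPM against 296, 325 and 289 CPM. Its groups overlapped, and the log2 fold change of 0.07 had a 95% interval of -0.03 to 0.17.

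All 3 nucleotide supply genes rose. RRM2, the small subunit of ribonucleotide reductase and a gene whose product peaks in S phase, was at 218, 235 and 227 CPM in WT and 337, 371 and 346 CPM in the libraries labelled ΔTUT4/7, 1.55 times higher (log2 fold change 0.63 ± 0.05, adjusted p = 1.89e-10). RRM1, the large subunit, was at 276, 277 and 276 CPM against 325, 327 and 330 CPM and rose by 0.24 ± 0.04 (adjusted p = 2.77e-05). The level of RRM2 per RRM1 transcript was 0.790 ± 0.028 in WT and 1.04 ± 0.052 in the other group. TYMS, the enzyme that makes thymidylate, rose by 0.22 ± 0.04 (132, 127 and 128 CPM to 147, 150 and 153 CPM, adjusted p = 0.000244), a call lost with library size alone (0.10, adjusted p = 0.0623). ENOSF1 overlaps TYMS by 3261 bases on the opposite strand and fell by 0.54 on the log2 scale. The strand setting of the counting is not given in the sources used here, so reads of the shared bases cannot be told apart.

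For Okazaki fragments, FEN1 trims the flap and LIG1 seals the nick. FEN1 was at 108, 115 and 123 CPM in WT and 150, 152 and 153 CPM in the libraries labelled ΔTUT4/7 (log2 fold change 0.40 ± 0.05, adjusted p = 5.32e-07), while FADS2, annotated over nearly all of FEN1 on the same strand, fell by 0.74. LIG1 was at 77.2, 65.5 and 77.1 CPM in WT and 65.5, 63.8 and 64.3 CPM in the other group. WT replicate 2 was level with the highest of these to 3 digits, and the fall of 0.18 ± 0.06 (adjusted p = 0.0148) did not pass without WT replicate 1 (-0.15, adjusted p = 0.0643) or WT replicate 3 (-0.14, adjusted p = 0.0743). The ratio of FEN1 to LIG1 per kilobase was 2.45 ± 0.281 in WT and 3.65 ± 0.080 in the other group.

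Among the control genes, both cyclin E genes rose. Cyclin E activates CDK2 at the entry to S phase and is itself an E2F target. CCNE1 (chr19:29811991-29824312) was the least counted member, with 246 counts in its lowest library, at 12.52, 12.04 and 13.53 CPM in WT and 24.2, 25.5 and 23.5 CPM in the libraries labelled ΔTUT4/7. It was 1.92 times higher (log2 fold change 0.94 ± 0.09, adjusted p = 4.33e-09), the next largest rise after RFC5. CCNE2 (chr8:94879770-94896678) went from 31.7, 31.0 and 30.4 CPM to 48.7, 52.9 and 44.4 CPM, 1.57 times higher (0.65 ± 0.07, adjusted p = 3.50e-08).

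The activator E2F genes split. E2F1 was at 55.4, 47.9 and 53.7 CPM in WT and 45.3, 43.8 and 43.8 CPM in the libraries labelled ΔTUT4/7, a fall of 0.24 ± 0.06 (adjusted p = 0.00257). E2F2 fell by 0.38 ± 0.05, from 63.5, 62.6 and 66.1 CPM to 49.6, 49.0 and 49.1 CPM (adjusted p = 2.87e-06). E2F3 rose by 0.51 ± 0.06, from 75.8, 64.3 and 64.3 CPM to 93.8, 102 and 94.9 CPM (adjusted p = 6.03e-07). In each of the 3 genes the groups did not overlap, and the sequences printed above show an E2F form upstream of all of them. The ratio of E2F3 to E2F1 per kilobase was 0.731, 0.717 and 0.639 in WT and 1.11, 1.24 and 1.16 in the others. On that scale E2F1 was ahead in every WT library and E2F3 in every other. In CPM E2F3 was above E2F1 in every library, so the crossing depends on the transcript lengths used.

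RB1 (chr13:48303744-48599436), the gene of the retinoblastoma protein, fell. It was at 141, 152 and 145 CPM in WT and 91.6, 91.3 and 93.9 CPM in the libraries labelled ΔTUT4/7, 0.631 of WT (log2 fold change -0.66 ± 0.05, adjusted p = 8.32e-11). LPAR6, a receptor gene inside an intron of RB1 on the opposite strand, went from 15.8 to 2.54 CPM (log2 fold change -2.63). RB1 shared its change with the genes around it: of 73 expressed genes within 5 Mb, 52 fell and 7 rose, and their median log2 fold change was -0.67.

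**Figure D3:**
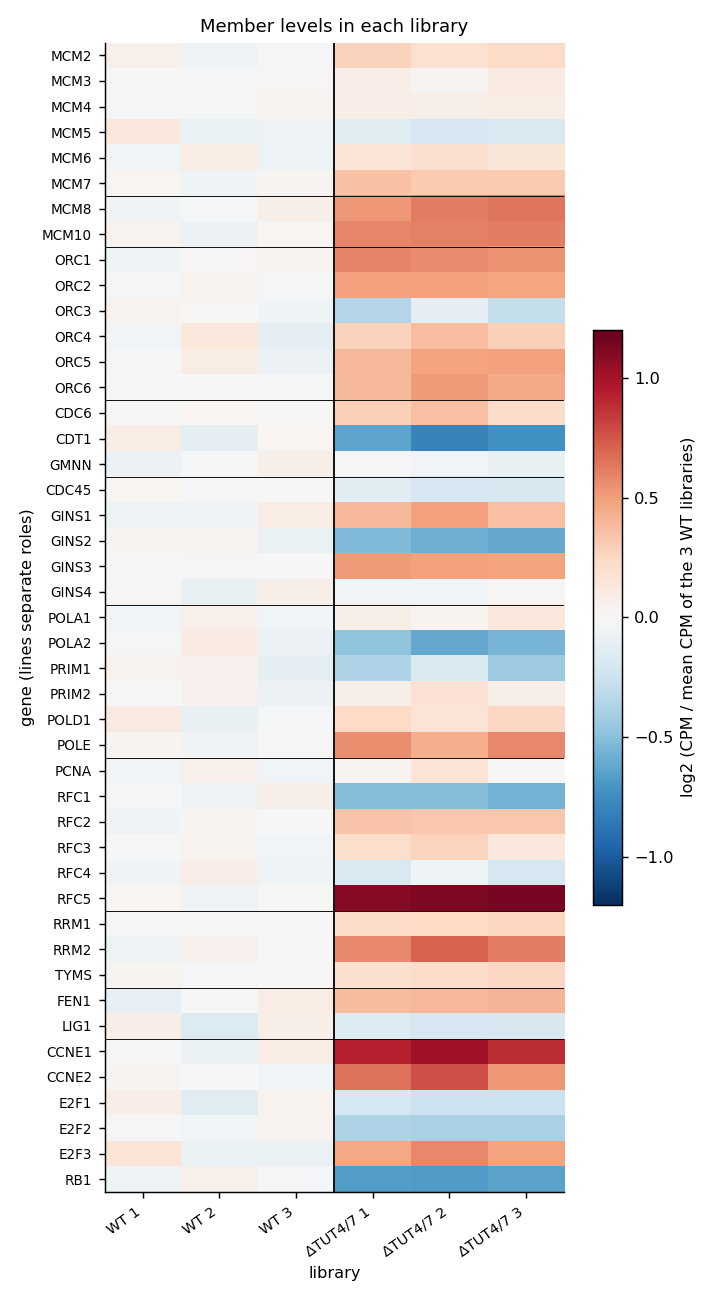
Level of each gene in each of the 6 libraries, as the log2 of CPM over the mean CPM of the 3 WT libraries; red is higher and blue lower. The 3 libraries labelled ΔTUT4/7 show the same colour for all 38 called genes, with RFC5 and CCNE1 deepest red and CDT1 deepest blue.

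The genes around each member were examined because several members moved with their chromosome region. Each had between 14 and 212 other expressed genes within 5 Mb, and the median log2 fold change of these ran from -0.67 (RB1) to 0.82 (RFC5). For 3 members, RB1, RFC5 and POLE, the neighbours' median was more than 0.5 from zero. Around RFC5, 74 of 89 neighbours rose and 0 fell at the same threshold, and RFC5 lay 0.29 above their median. Around POLE, near the end of the same chromosome arm, 25 of 29 rose and 1 fell, and POLE lay 0.18 below their median of 0.70. RFC1 was close to its neighbours as well, which had a median of -0.47 with 23 of 33 lower. What moved these regions was not tested.

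Other members lay farther from the median of their surroundings, or on the other side of zero from it. CCNE2 rose by 0.65 among 46 neighbours with a median of -0.23, CCNE1 by 0.94 against a median of 0.31, and RRM2 by 0.63 against 0.05. RFC3 rose by 0.20 where its neighbours had a median of -0.34. POLA2 and PRIM1 fell where their neighbours had medians of 0.19 and 0.21. CDT1, on chromosome 16, fell by 0.71 among neighbours with a median of -0.30. GINS2, on the same chromosome, had neighbours with the same median and lay 0.27 below it, about as far as RFC5 lay above its own. With the neighbours' median subtracted, 34 of the 38 called members kept their sign, and MCM5, POLD1, POLE and RB1 changed theirs, to 0.16, -0.04, -0.18 and 0.0026. The size moved in most: over all 45 members, 33 values moved by more than the spread between replicates without such a change of sign and 8 did not, among the former MCM6 (0.16 to 0.03), CDC45 (-0.17 to -0.05) and RRM1 (0.24 to 0.08).

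**Figure D4:**
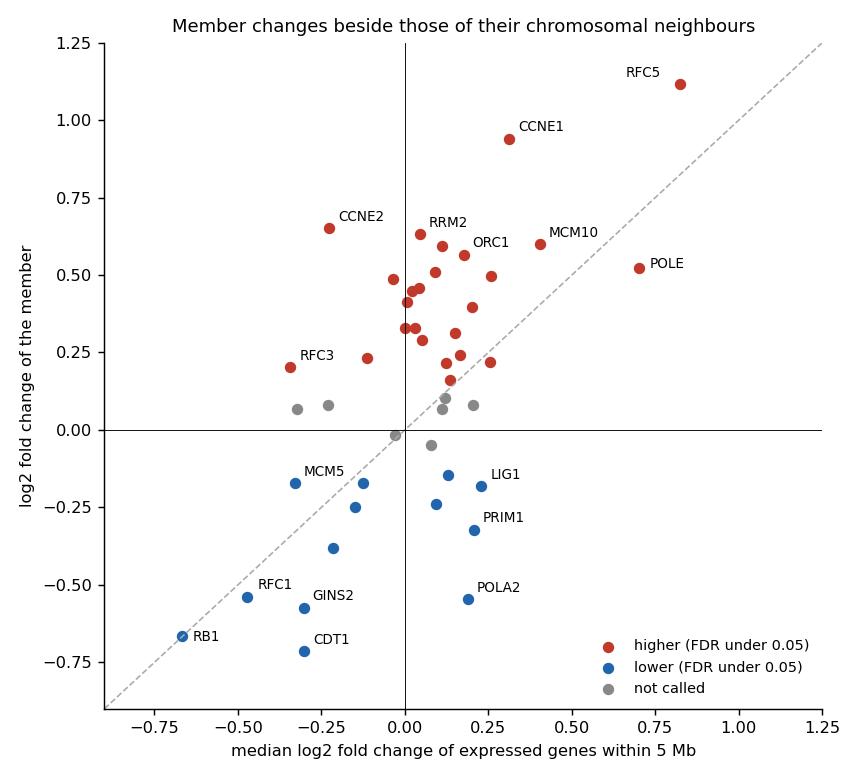
Log2 fold change of each gene (vertical) against the median log2 fold change of the other expressed genes within 5 Mb (horizontal); the dashed line marks equal values and colours mark the calls. RB1, RFC1 and POLE lie near the line, while CCNE2, RRM2, POLA2 and CDT1 lie 0.41 or more away from it.

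Other genes of the pathway gave a like mixture. Of 47 further replication factors tested, 20 rose, 14 fell and 13 were not called, with a median log2 fold change of 0.08. At 72.3% called and 42.6% higher, this list lay between all tested genes (57.7% and 28.6%) and the highly counted ones (77.6% and 48.6%). The strongest calls were POLE3, a small subunit of the POLE complex (87.8 ± 1.53 to 167 ± 3.18 CPM, mean ± SD, log2 fold change 0.93, adjusted p = 1.83e-13), and SSRP1, a subunit of the histone chaperone FACT (0.67, adjusted p = 2.19e-11), upward, and RRM2B and ATAD5 downward. RRM2B, a p53-induced small subunit of ribonucleotide reductase, went from 140 ± 8.09 to 57.6 ± 5.60 CPM (log2 fold change -1.28, adjusted p = 7.47e-12), opposite to RRM2. ATAD5, which unloads PCNA, fell by 0.63 (adjusted p = 2.58e-10), as RFC1 did. Of 31 genes of G2 and mitosis, 13 rose and 10 fell with a median of 0.03 and 74.2% called, within the same range, a split that became 8 higher and 12 lower with library size alone. FOXM1 and BIRC5 rose by 0.67 and 0.53, and PRC1 and CDC25C fell by 0.79 and 0.82. Around PRC1, 38 of 52 neighbours fell and 4 rose, with a median of -0.61, and PRC1 lay 0.18 below it.

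The 30 tested regulators of E2F, RB and the entry to S phase had 13 higher, 11 lower and a median of 0.13, with 80.0% called. At 4 of 30, 13.3% of them were called with at least a 2-fold change, against 18.3% of all tested genes and 8.58% of the highly counted ones. TFDP1, a DNA-binding partner of E2F proteins, rose from 49.6 to 138 CPM (log2 fold change 1.48, adjusted p = 9.49e-16), and its neighbours within 5 Mb had a median of 1.02. CDC25A, the phosphatase that activates CDK2, rose from 92.5 to 211 CPM (1.19, adjusted p = 7.95e-15), where its neighbours had a median of 0.51. CDKN1A, the CDK inhibitor p21, went from 83.5, 76.0 and 74.1 CPM in WT to 7.93, 6.29 and 8.68 CPM (log2 fold change -3.34, adjusted p = 9.45e-17). RBL2, a relative of RB1, fell from 154 to 78.9 CPM (-0.97, adjusted p = 1.11e-13). RBL1, the other relative of RB1, and cyclin D1 (CCND1) were chosen after their values were seen. RBL1 fell by 0.77 (adjusted p = 3.57e-11), so all 3 RB family genes were lower. The neighbours' median was 0.12 for RBL1 and 0.25 for RBL2, but -0.67 for RB1, which fell about as much as its region. CCND1 rose from 32.0 to 116 CPM (1.86, adjusted p = 3.40e-14). The other D cyclin genes, picked in the same way, split. CCND2, the highest of them in CPM in both groups, fell from 482 to 374 CPM (-0.37, adjusted p = 1.09e-07). CCND3 rose from 19.5 to 33.3 CPM (0.77, adjusted p = 1.42e-08). The other E2F genes of the list and TFDP2 were also picked after their values were seen. E2F4 and E2F8 rose by 0.57 and 0.50, while E2F5 (0.14), E2F6 (0.11) and E2F7 (-0.09) were not called. E2F7 passed as lower with library size alone (-0.21, adjusted p = 0.00158). TFDP2, the other partner gene, fell by 0.13 (adjusted p = 0.0149), a value that turned to 0.01 with a GC and length offset.

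**Figure D5:**
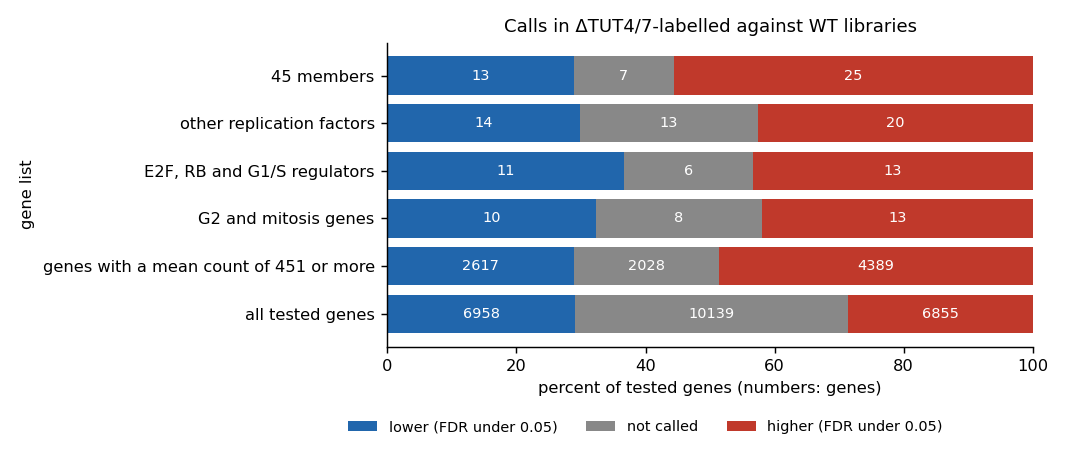
Share of tested genes called lower (blue), not called (grey) and called higher (red) in the libraries labelled ΔTUT4/7, for the 45 genes, 3 other lists, the genes whose mean count reached 451 and the whole tested set; numbers in the bars are genes. The bar of the 45 genes, with 25 higher and 13 lower, is close to that of the genes counted as highly.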

How the data were processed

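Total RNA of 6 HEK 293T libraries was depleted of rRNA and sequenced. Per the labels and the study's methods, the authors aligned reads to hg38 with STAR 2.7.3a and deposited estimated counts per Ensembl gene from the expectation-maximisation model of Partek 10.0.22; such counts need not be whole, and they divide reads of overlapping or similar genes by model. The strand setting is not given in the sources used here. The authors' own comparison table (p-values, FDR, ratios, fold changes and group means) was not used.

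Counts were rounded. Genes with a largest count above 12 were tested, 23952 in all; the rest held 0.0960% of counts. TMM scaling and edgeR 4.0.16 in R 4.3.3 (glmQLFit robust, glmQLFTest, group as the only term) gave log2 fold changes, standard errors and 95% intervals from the quasi-likelihood statistic, and p-values adjusted by Benjamini-Hochberg over all tested genes, called under 0.05. Printed adjusted p-values come from this fit unless an alternative is named. The fit was tested on simulated data. Levels per kilobase used the length of the Ensembl canonical transcript. Coordinates are those of the deposited table with 1 base taken off the stop column. The choices varied were scaling (by library size alone, RLE or the upper quartile), the test (DESeq2 1.42.0, limma 3.58.1 with voom or on log2(CPM + 1)), other count filters, a GC and length offset, a replicate block, each library left out, and the median of neighbours within 5 Mb subtracted. The limma fit on log2(CPM + 1) used CPM by library size alone, without TMM factors, so it changed both the test and the scaling.

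Depth was 18757228 to 33148937 counts per library, and each member held 246 counts or more in every library. The labels call the replicates biological; nothing says that they were separate cultures, so p-values measure the spread between these samples. The members and gene lists were chosen with earlier results of these data known. Named genes are all 45 members, TUT4 and TUT7, the 2 smallest p-values in each direction of each other list, and genes that overlap a member where a value turns on them; 23 members overlap another annotated gene, 6 of them on the same strand, leaving out symbols whose listed span exceeds 1 Mb because it joins several copies. Others are marked as chosen after their values were seen. A further list of cell type markers is not reported here.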

Additional observations from a re-analysis of the deposited data

How the results depend on the processing

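Of the 38 called members, 31 kept their call and direction in all 16 alternative fits. Members called higher and lower were 21 and 15 with library size alone and with limma on log2(CPM + 1), 22 and 14 with upper-quartile scaling, 24 and 13 with genes kept from a mean count of 50, and 28 and 13 with the GC and length offset. The limma fit on log2(CPM + 1) was itself scaled by library size alone, so in scale it is not separate from that fit. RLE scaling, DESeq2, limma-voom and no count filter each gave 25 and 13. Leaving out 1 library gave 25 higher each time and 11 to 13 lower. Library size alone and upper-quartile scaling moved the median of all tested genes by -0.11 and -0.10 (log2), and the share of higher among all calls from 49.6% to 40.1% and 41.4%. They and limma on log2(CPM + 1), in that order of library size, upper quartile and limma, turned the log2 fold change of MCM3 (-0.048, -0.033 and -0.048), MCM4 (-0.035, -0.020 and -0.035), POLA1 (-0.036, -0.021 and -0.036) and PCNA (-0.048, -0.033 and -0.048); PRIM2 turned to -0.011 with library size and with limma, and no member among these was called in any of those fits. GINS4 ran from -0.059 to 0.023 as single libraries were left out (0.023 without WT replicate 3) and was 0.013 with the GC and length offset, which also turned E2F7 (0.011) and TFDP2 (0.011). Calls were lost for MCM6 (4 fits), POLD1, RFC3 and RFC4 (3 each), TYMS and LIG1 (2 each) and MCM5 (1 fit). The GC and length offset brought MCM4, POLA1 and PRIM2 past the threshold as higher. GINS4 passed as lower with library size alone (-0.13, adjusted p = 0.0438) and with limma on log2(CPM + 1) (-0.13, adjusted p = 0.0476). GMNN passed as lower in these fits and with upper-quartile scaling (-0.15, adjusted p = 0.0259). Genes of G2 and mitosis called higher fell from 13 to 8 with library size alone and with limma on log2(CPM + 1). With the neighbours' median subtracted, MCM5 became 0.16, POLD1 -0.037, POLE -0.18 and RB1 0.0026. The cause of these moves was not tested beyond the shared shift of scale.

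The replicate numbers were not shown to pair the samples: deviations of same-numbered libraries correlated at 0.05, -0.01 and -0.02. With the replicate block 25 members were higher and 13 lower, and 13678 genes were called in all against 13813 without it. Members had 246 counts or more per library and standard errors of 0.04 to 0.09 on the log2 scale, which hold the spread between libraries as well as counting error, so differences under about 0.1 between groups were not detectable for most members. The groups are 1 line each, which sets a limit that no choice of processing changes.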
